A study of Mus musculus with 11 samples.

Results

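The genes described here are 10 components of the RNA silencing machinery of the mouse: *Tnrc6a*, *Tnrc6b*, *Tnrc6c*, *Ago1*, *Ago2*, *Ago3*, *Dicer1*, *Drosha*, *Dgcr8*, and *Xpo5*. Of these, 9 were taken by name as core genes of the microRNA (miRNA) pathway, with earlier results of these data known. *Tnrc6a* was chosen by its measured log2 signal, which was higher with both siRNAs than in the control arrays. They are 10 of the 17016 genes named on the array and are read by 20 of its 41174 probes, of which 19 were bright enough to be tested. Probes were matched to genes through the RefSeq accession that the array gives for each, and *Ago1*, *Ago2*, and *Ago3* were formerly called *Eif2c1*, *Eif2c2*, and *Eif2c3*.

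The study knocked down *Mamld1*, a gene linked to testosterone production, in MLTCs (MLTC-1), tumor cells of the mouse Leydig lineage kept in culture. Total RNA was hybridized on 11 single-color oligonucleotide arrays. The control group (4 arrays) received non-targeting RNA (4611G), and the knockdown groups received siRNA1 (4 arrays) or siRNA2 (3 arrays), which are RNA duplexes of different sequence against *Mamld1*. All groups were transfected at 20 nM and incubated for 48 hours, so that the control MLTCs had taken up a short RNA as well. The methods add that hCG was given 1 hour before harvest, whereas the sample labels name no hCG. The line is a tumor line, the knockdown was transient, and nothing in the labels says that arrays of a group came from separate cultures. The methods speak of hybridization in triplicate while the labels list 4, 4, and 3 arrays, so that what an array of a group repeats is not settled. The p-values therefore measure the spread between these arrays, which may be technical, and the small number of arrays limits the precision.

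*Mamld1* itself averaged 54.0% ± 15.4 (SD, n = 4) of the control level with siRNA1 and 59.8% ± 12.6 (SD, n = 3) with siRNA2, and every siRNA array lay below every control array. Its log2 difference was -0.93 ± 0.20 (SE) with siRNA1 (adjusted p = 0.00571) and -0.77 ± 0.22 with siRNA2 (adjusted p = 0.0309, limma). The siRNA2 call was lost without control array 3 or 4 or siRNA2 array 1 or 3, with adjusted p up to 0.117. Under normexp, another background correction, the differences turned to 0.65 and 0.44 and did not pass. All 7 Leydig cell markers were above background on all arrays, of which *Cyp17a1* fell with both siRNAs (log2 differences of -0.92 and -0.48) and *Lhcgr* with siRNA1 (-0.63, adjusted p = 0.00285). Of the 5 Sertoli cell markers *Amh* and *Rhox5* were above background on all arrays, and *Rhox5* fell with siRNA1 (-0.58, adjusted p = 0.00767). Of the 3 macrophage markers with a probe *Adgre1* and *Ptprc* were above background on no array and *Csf1r* on 6, and of the 3 endothelial markers *Kdr* was on none and *Pecam1* on 3. *Cdh5*, the other endothelial marker, was higher with both siRNAs (log2 differences of 1.22 and 0.84), and its summed level with the other endothelial markers was 317 to 394 on control, 762 to 1358 on siRNA1, and 553 to 773 on siRNA2 arrays. The part of these markers in the results was not tested. The 75th percentile of the signal, by which arrays were scaled, was 601 to 774 on siRNA1 arrays against 470 to 582 on control and 488 to 579 on siRNA2 arrays. Scaling by the median in its place gave the same numbers of member probes that passed in all 3 comparisons.

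In the miRNA pathway, a primary transcript is cut in the nucleus by the Microprocessor, made of the nuclease Drosha and its RNA-binding partner Dgcr8, and the hairpin is carried to the cytoplasm by Exportin-5 (*Xpo5*). Dicer1 then cuts the hairpin to a short duplex, and 1 strand is loaded into an Argonaute protein, which also accepts synthetic siRNAs. Argonaute binds a Tnrc6 (GW182) protein, and Tnrc6 recruits the deadenylases and decapping factors that silence the target mRNA. The Microprocessor is known to cut hairpins within the *Dgcr8* mRNA as well, so that its activity lowers the message of its own subunit.

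Of the 10 genes, 3 hold a miRNA hairpin on their own strand in RefSeq (GRCm38.p6): *Dgcr8* (mir-1306 and mir-3618), *Tnrc6b* (mir-5113), and *Xpo5* (mir-693). The mature sequences from the *Dgcr8* hairpins are shown because they are the part of the *Dgcr8* transcript that the pathway itself processes, and the capitals mark the seed, bases 2 to 8 from the 5′ end. The arrays gave no value for these miRNAs.
mmu-miR-1306-5p: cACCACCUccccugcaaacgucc
mmu-miR-1306-3p: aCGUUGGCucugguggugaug
mmu-miR-3618-5p: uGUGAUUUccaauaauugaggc
mmu-miR-3618-3p: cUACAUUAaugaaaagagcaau
The 4 strands carry 4 different seeds, so that no seed was shared between the arms.

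Each probe is given below as a percentage of the control level (the geometric mean over the 4 control arrays), after each array was scaled to its own 75th percentile. Probes of a gene are numbered from the brightest, and levels are not compared between probes. A probe is said to have risen or fallen where its Benjamini-Hochberg adjusted p over all 24250 tested probes was 0.05 or less. These were RNA extracts of whole cultures, so that fewer cells expressing a gene and less RNA per cell cannot be told apart.

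*Tnrc6a* was the member with the largest differences, in both knockdown groups. Because it was chosen for its higher level with both siRNAs, its values are a description, and no test is given for any of its comparisons. On probe 1 (A_51_P141136) the control arrays read 115, 94.3, 94.6, and 97.8%. The siRNA1 arrays read 364, 263, 246, and 255%. The siRNA2 arrays read 221, 201, and 168%. All siRNA arrays were thus above all control arrays, and all siRNA1 arrays were above all siRNA2 arrays. The mean log2 differences from control were 1.48 ± 0.14 (SE) with siRNA1 and 0.97 ± 0.15 with siRNA2, or 2.78-fold and 1.95-fold.

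Probe 2 (A_51_P509229) showed the widest gap between the siRNAs. Its control arrays read 77.9, 94.7, 102, and 133%. With siRNA1 it read 354, 360, 400, and 458%. With siRNA2 it read 197, 148, and 164%. The groups again kept apart from each other, with the lowest siRNA2 array not far above the highest control array. The log2 difference was 1.97 ± 0.16 (SE) with siRNA1 and 0.75 ± 0.17 with siRNA2, and the difference between siRNA1 and siRNA2 was 1.21 ± 0.17, against 0.51 ± 0.15 on probe 1. Within the slides (3 slides, each with arrays of all groups) the siRNA2 difference of probe 2 was 1.20, 0.54, and 0.30, and that of siRNA1 was 2.04, 1.90, and 1.78.

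Probe 3 (A_51_P311379) was dim, with signals of 1.94 to 21.4. It was not well above background on any of the 4 control arrays, was above it on all 4 siRNA1 arrays, and on 1 of 3 siRNA2 arrays. The siRNA1 level was 1.47-fold that of the control when each control array was given the lowest signal that counted as measured on it. This is no strict bound, since some probes with higher signals did not count as measured. No fold is given for siRNA2, since most of its arrays were not measured either. Under normexp with extreme local backgrounds replaced, the siRNA1 difference of this probe was -0.039 on the log2 scale.

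**Figure D1:**
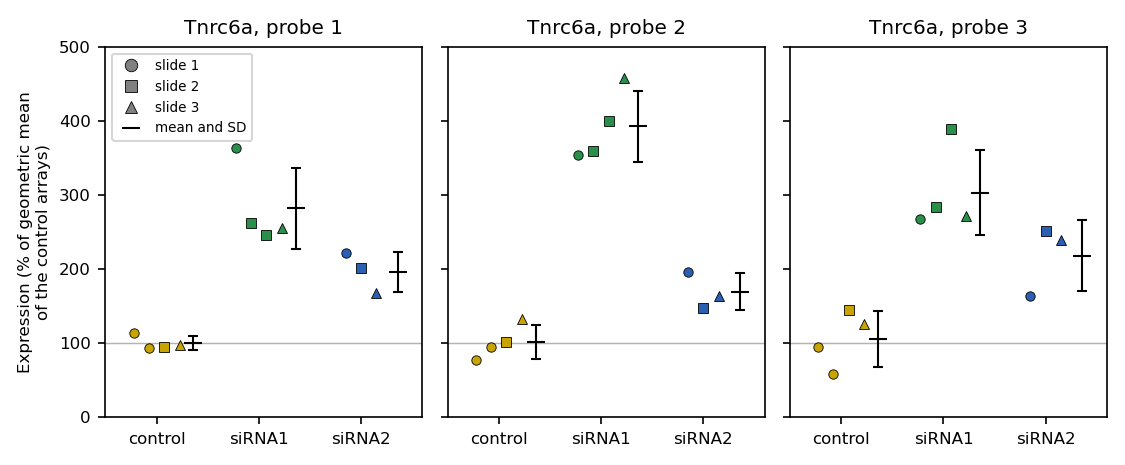
Level of *Tnrc6a* on each array for its 3 probes, as percentage of the control level (vertical axis) in control, siRNA1, and siRNA2 arrays (horizontal axis). Each point is 1 array, its shape is the slide, and the bar is the mean with SD. Every siRNA array lies above every control array on probes 1 and 2, probe 3 was above background on 0 control arrays and 1 siRNA2 array, and on probe 2 the siRNA1 arrays reach 458% where the siRNA2 arrays reach 197%.

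Among tested probes with a gene symbol, those whose pattern over the 11 arrays was most like probe 2 of *Tnrc6a* were of *Txnl4b* (Pearson's r = 0.981), *Ifngr2* (0.979), *Hexim1* (0.976), *Scarb2* (0.976), and *Oxa1l* (0.973). The correlations are over log2 values of arrays that share groups and slides, and they are given as a description. Probe 1 of *Tnrc6a* was less like it, with r = 0.880, and ranked 431 among the tested probes.

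Apart from *Tnrc6a*, 16 probes of 8 members were tested. With siRNA1, 3 of the 16 passed (18.8%), 2 higher and 1 lower, where 27.0% of all tested probes passed (11.8% higher and 15.2% lower). With siRNA2, 5 of the 16 passed (31.2%), 3 higher and 2 lower, where 18.4% of all tested probes passed (7.70% higher and 10.7% lower). Between siRNA1 and siRNA2, 6 of the 16 differed (37.5%), 3 in each direction, where 23.5% of all tested probes did (11.7% higher and 11.8% lower with siRNA1). The groups did not overlap on 4, 4, and 7 of the 16 probes, where they did not on 29.1, 28.1, and 31.3% of all tested probes. The shares at the adjusted threshold and those without overlap lay on both sides of the background, by no more than 3 probes in any comparison. Nothing is read from them, or from the shares below, about the machinery as a group. With normexp background correction none of the 16 passed in any comparison. The share of all tested probes that passed under normexp is not given, so nothing is read from this about the members. The median log2 difference of the 16 probes was 0.10 with siRNA1 and 0.20 with siRNA2, against -0.05 and -0.01 over all tested probes. No probe of the 16 passed with a fold change of at least 2 in any comparison, where 2.99% of all tested probes did with siRNA1, 2.25% with siRNA2, and 3.36% between the siRNAs. At an unadjusted p under 0.05 in limma 4, 7, and 9 of the 16 probes passed (no fold required), where 38.3, 30.5, and 35.2% of all tested probes did.

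**Figure D2:**
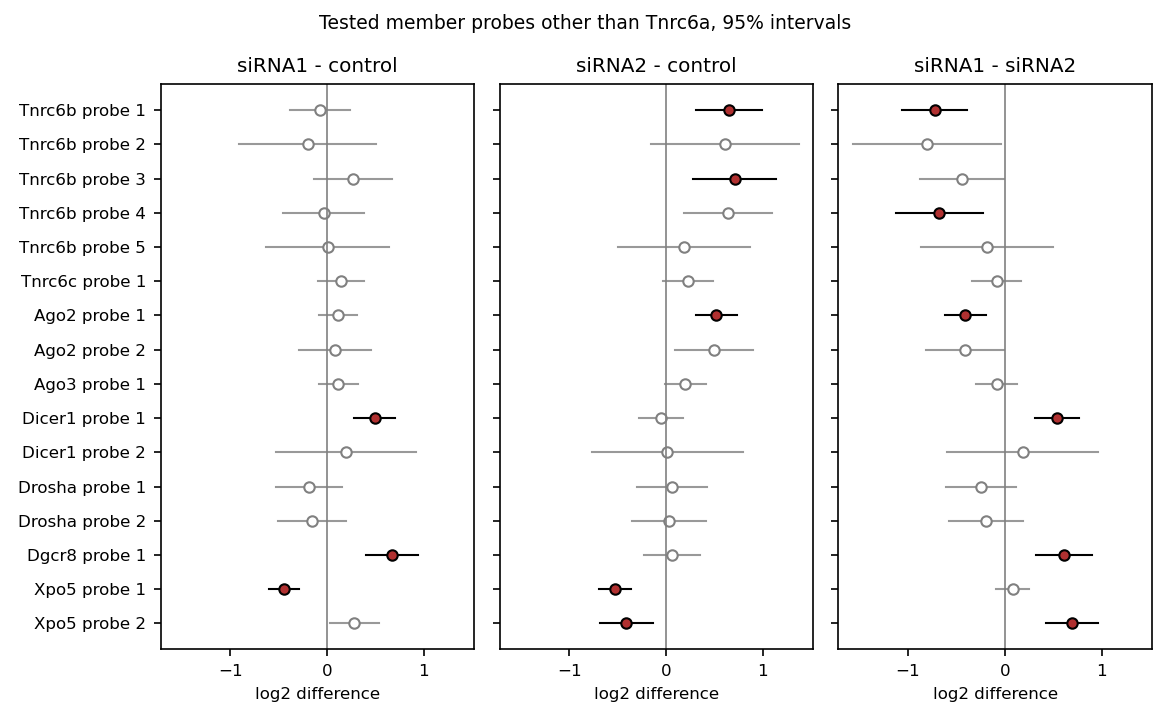
Log2 differences (horizontal axes) of the 16 tested probes of the 8 members other than *Tnrc6a* (vertical axis) for siRNA1 against control, siRNA2 against control, and siRNA1 against siRNA2. Points are fitted differences, lines their 95% intervals, and filled points passed at an adjusted p of 0.05 or less (3, 5, and 6 probes). All points lie within -0.81 and 0.71.

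*Tnrc6b*, the second Tnrc6 scaffold, was higher with siRNA2 on 2 of its 5 probes and passed on none with siRNA1. On probe 1 (A_51_P398596) the control arrays read 79.5, 118, 104, and 102%. With siRNA1 it read 86.0, 95.4, 93.3, and 106%. With siRNA2 it read 133, 192, and 152%. The siRNA2 arrays were all above the control and the siRNA1 arrays, and the siRNA1 arrays lay within the control range. The siRNA2 difference of 0.65 ± 0.15 (SE) passed (adjusted p = 0.0129), whereas that of siRNA1 was -0.07 ± 0.14 (adjusted p = 0.741). The difference between the siRNAs was itself past the threshold (siRNA1 minus siRNA2 -0.72 ± 0.15, adjusted p = 0.0056). Without siRNA2 array 2, the highest, the siRNA2 difference was 0.51 with an adjusted p of 0.0626.

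The other 4 *Tnrc6b* probes are designed to another RefSeq transcript than probe 1, and they did not all behave alike. Probe 3 rose with siRNA2 by 0.71 ± 0.20 (adjusted p = 0.0276), from 69.2 to 125% on control arrays to 140 to 200% on siRNA2 arrays. That call was lost without control array 3 (adjusted p = 0.052), siRNA2 array 2 (adjusted p = 0.122), or siRNA2 array 3 (adjusted p = 0.058). Probe 4 read 125, 189, and 162% with siRNA2 against 72.1 to 129% in the controls, and its difference of 0.64 ± 0.21 missed the threshold (adjusted p = 0.0515). With slide as a block the same probe passed at 0.57 (adjusted p = 0.00597). Its difference between the siRNAs of -0.68 ± 0.21 passed (adjusted p = 0.0348), and did not hold when array 1 or 4 of siRNA1 or array 2 or 3 of siRNA2 was left out (adjusted p up to 0.139). Probe 2 had a wide spread, with control arrays from 50.7 to 139%, and did not pass in any comparison. Probe 5 was dim, with 2 of 4 control arrays above background, and its log2 differences were 0.01 and 0.19. The mean over the probes was 0.56 with siRNA2 and did not pass (adjusted p = 0.0569), whereas the siRNAs differed on it by -0.57 (adjusted p = 0.0454).

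*Tnrc6c*, the third scaffold, differed little. Its only probe read 87.8 to 108% on control arrays, 97.6 to 122% on siRNA1 arrays, and 107 to 134% on siRNA2 arrays, and the groups overlapped. Its log2 difference was 0.14 (95% interval -0.10 to 0.38) with siRNA1 and 0.23 (-0.03 to 0.48) with siRNA2, and neither passed. The intervals allow a rise of the size seen for *Dgcr8* in neither comparison.

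Among the Argonautes, *Ago2*, the one mammalian Argonaute known as an efficient slicer of perfectly paired targets, was higher with siRNA2. On probe 1 (A_52_P101221) the control arrays were tight, at 101, 99.6, 96.6, and 103%. The siRNA1 arrays read 116, 108, 112, and 97.4%. The siRNA2 arrays read 126, 157, and 149%. All siRNA2 arrays were above all others, and the siRNA1 arrays overlapped the controls. The siRNA2 difference was 0.52 ± 0.10 (SE; adjusted p = 0.00334), and that of siRNA1 was 0.11 ± 0.09 (adjusted p = 0.39). The difference between the siRNAs of -0.41 ± 0.10 passed (adjusted p = 0.0103), but not without siRNA2 array 2 (-0.34, adjusted p = 0.0557).

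On probe 2 *Ago2* had nearly the same differences with a wider spread. It read 107, 175, and 151% with siRNA2 against 85.6 to 113% in the controls, so that the groups overlapped. Its siRNA2 difference of 0.50 ± 0.18 did not pass (adjusted p = 0.0871), and its difference between the siRNAs was -0.41 ± 0.18 (adjusted p = 0.133). With slide as a block these were 0.43 (adjusted p = 0.0105) and -0.46 (adjusted p = 0.00581), and both passed.

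*Ago3*, an Argonaute with little or no slicing activity, did not pass with either siRNA. It read 94.0 to 108% on control arrays, 106 to 110% on siRNA1 arrays, and 99.8, 129, and 118% on siRNA2 arrays. The log2 differences were 0.12 (95% interval -0.08 to 0.31) and 0.20 (-0.01 to 0.41).

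*Ago1* had a single probe, near background on all arrays with signals of 6.74 to 13.2, and it was not tested. It was above background on 3 of 4 control, 3 of 4 siRNA1, and 2 of 3 siRNA2 arrays. It read 65.1 to 126% in the controls, 45.9 to 89.9% with siRNA1, and 68.2 to 114% with siRNA2, and all groups overlapped.

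**Figure D3:**
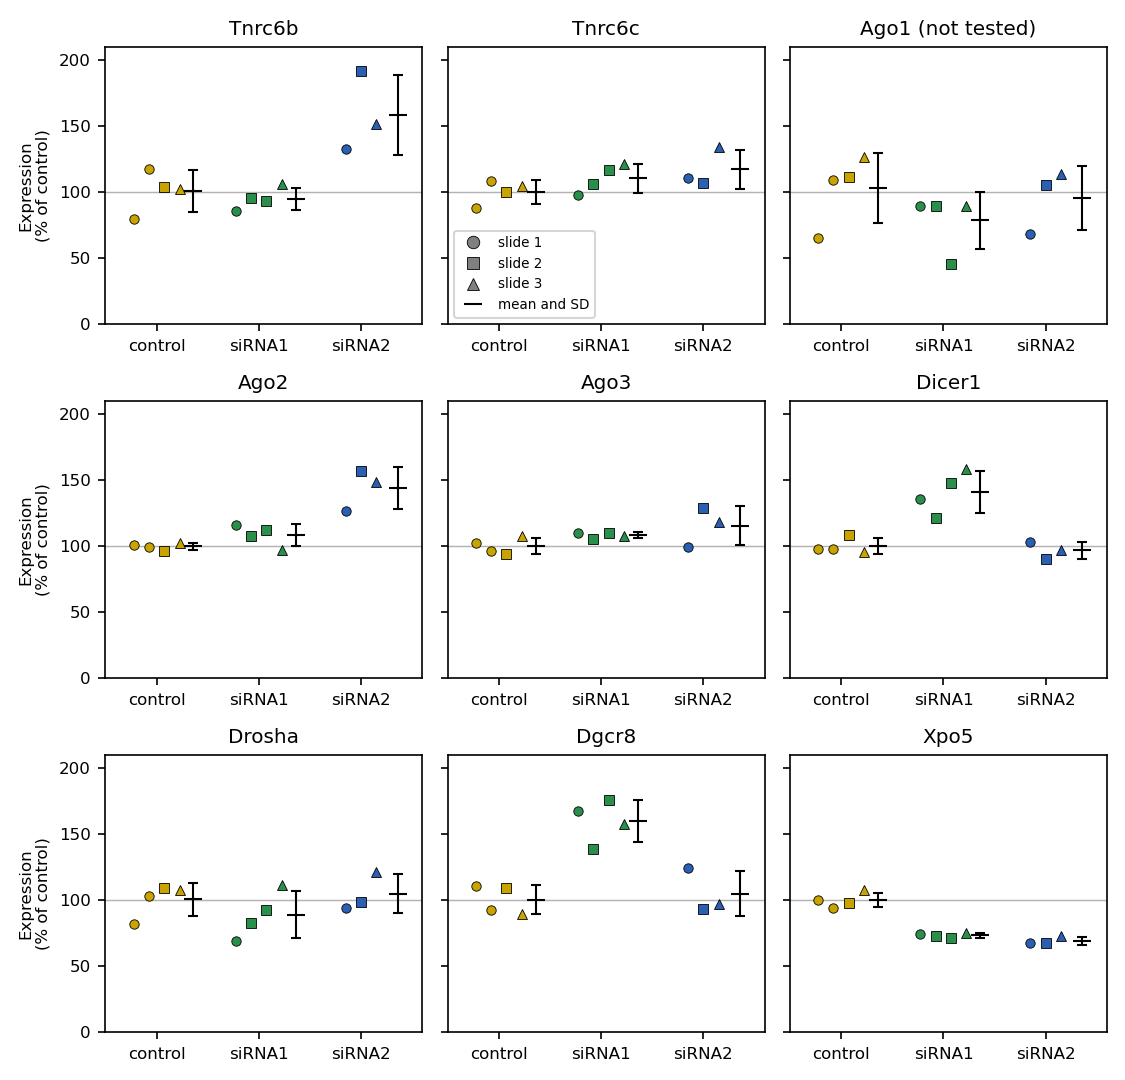
Level on each array (vertical axes, percentage of the control level) of the brightest probe of the 9 members other than *Tnrc6a*, in control, siRNA1, and siRNA2 arrays (horizontal axes). Points are arrays, shapes are slides, and bars are means with SD. *Tnrc6b* and *Ago2* stand apart on the siRNA2 arrays, *Dicer1* and *Dgcr8* on the siRNA1 arrays, and *Xpo5* is lower on both.

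*Dicer1*, the cytoplasmic nuclease that makes the short duplexes, rose with siRNA1 on its brighter probe. On probe 1 (A_51_P333060) the control arrays read 98.3, 97.6, 109, and 95.9%. On the siRNA1 arrays it read 136, 122, 148, and 159%. On the siRNA2 arrays it read 103, 90.6, and 96.9%. The siRNA1 arrays were all above the arrays of both other groups, which overlapped. The siRNA1 difference was 0.49 ± 0.10 (SE; adjusted p = 0.00314), and that of siRNA2 was -0.05 ± 0.10 (adjusted p = 0.822). The siRNAs differed from each other by 0.54 ± 0.10 (adjusted p = 0.00306), and both calls held when each array was left out in turn.

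Probe 2 of *Dicer1* did not show the rise. It read 58.2 to 134% on control arrays and 89.1 to 146% on siRNA1 arrays, and its siRNA1 difference was 0.20 with a 95% interval of -0.53 to 0.92. That interval holds the value of probe 1 as well as 0. The mean over both probes gave 0.34 with siRNA1 and did not pass (adjusted p = 0.13).

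*Dgcr8*, the RNA-binding subunit of the Microprocessor, rose with siRNA1 on its only probe (A_52_P22446). The control arrays read 111, 92.5, 109, and 89.5%. In siRNA1-transfected MLTCs it read 168, 139, 176, and 158%. In siRNA2-transfected MLTCs it read 125, 93.2, and 97.0%. Every siRNA1 array was above every array of the other groups, and the siRNA2 and control arrays overlapped. The siRNA1 difference was 0.67 ± 0.12 (SE; adjusted p = 0.00205), the largest siRNA1 rise among the 16 probes. With siRNA2 it was 0.06 ± 0.13 (adjusted p = 0.832), and the siRNAs differed by 0.62 ± 0.13 (adjusted p = 0.00592). Within slides the siRNA1 difference was 0.73, 0.52, and 0.82. This is the transcript that carries the hairpins whose mature strands are printed above.

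*Drosha*, the nuclease of the same complex, did not pass on either probe. Probe 1 read 82.2 to 109.5% in the controls, 69.6 to 112% with siRNA1, and 94.2 to 122% with siRNA2, with all groups overlapping. Its log2 differences were -0.19 (95% interval -0.52 to 0.15) and 0.06 (-0.30 to 0.42). Probe 2 gave -0.16 and 0.03. Neither interval of probe 1 reaches the siRNA1 rise of *Dgcr8*.

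*Xpo5*, the exporter of the hairpins, fell with both siRNAs on its brighter probe and was the only tested member with a probe past the threshold for both. On probe 1 (A_52_P201232) the control arrays read 100.2, 94.5, 98.2, and 108%. Values with siRNA1 were 74.3, 72.7, 71.3, and 75.2%. Values with siRNA2 were 67.8, 67.6, and 72.9%. All siRNA arrays lay below all control arrays, and the siRNA groups overlapped each other. The log2 differences were -0.45 ± 0.07 (SE; adjusted p = 0.00092) and -0.53 ± 0.08 (adjusted p = 0.00075), and both held without each array in turn. The comparisons share the 4 control arrays. Within slides the differences were -0.39, -0.45, and -0.52 with siRNA1 and -0.52, -0.54, and -0.56 with siRNA2.

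The dim probe 2 of *Xpo5* (A_52_P209328, signals of 14.0 to 39.2) did not follow with siRNA1. The control arrays read 91.3, 106, 107, and 95.9%. The siRNA1 arrays read 130, 126, 120, and 112%, all above the controls. The siRNA2 arrays read 67.9, 93.2, and 67.7%, overlapping the controls with 1 array. The siRNA1 difference was 0.28 ± 0.11 (SE; adjusted p = 0.0907), of the opposite sign to probe 1, with a two-sided exact permutation p of 0.0286, the smallest that 4 arrays against 4 can give. Among 26 recomputations under other settings, this difference came to pass in 3 and changed sign in 2. The siRNA2 difference was -0.41 ± 0.12 (adjusted p = 0.0407), and the call was lost on leaving out any 1 of 7 arrays (control 2, 3, or 4, siRNA1 2 or 3, siRNA2 1 or 3), with adjusted p up to 0.144. The siRNAs differed on this probe by 0.69 ± 0.12 (adjusted p = 0.00202) and not on probe 1 (0.08 ± 0.08, adjusted p = 0.495). A single level of *Xpo5* with siRNA1 can therefore not be given, and the mean over both probes was -0.08 (adjusted p = 0.406).

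**Figure D4:**
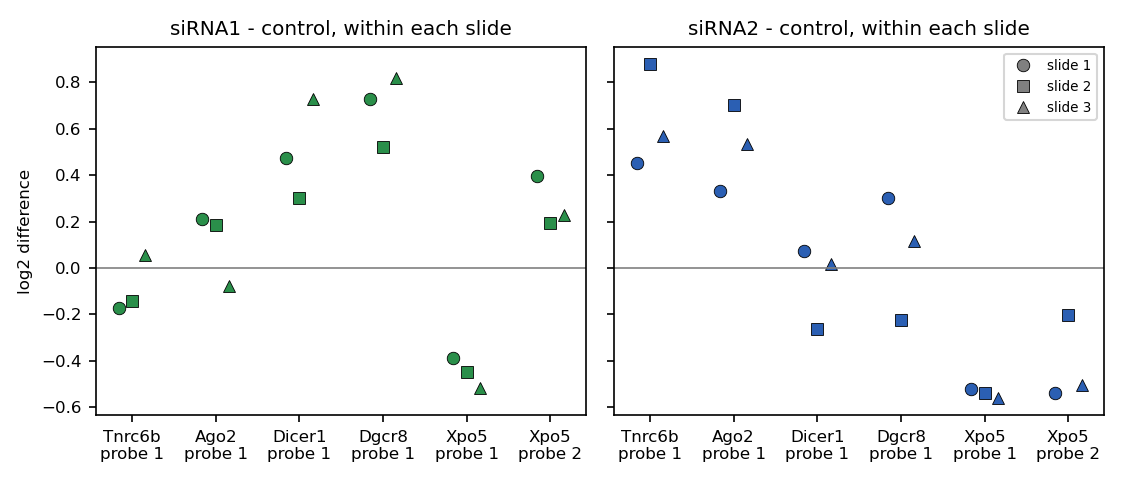
Log2 differences within each of the 3 slides (vertical axes) for the probes of 5 members on which the results turn, with siRNA1 (left) and siRNA2 (right). Points are mean differences among the arrays of 1 slide. *Xpo5* probe 1 keeps between -0.39 and -0.56 on every slide, and its probe 2 lies above 0 with siRNA1 and below 0 with siRNA2.

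Around the core, 99 genes on 6 lists were looked up (partners in nuclear processing, partners of Dicer and Argonaute, deadenylation, decapping and translational repression, miRNA tailing and turnover, and the germline Piwi pathway). Of these, 90 had a probe and 82 were tested, each by its brightest tested probe. With siRNA1, 14 genes were higher and 12 lower, or 31.7% of the 82, where 29.3% of all 11818 tested genes passed (10.6% higher and 18.7% lower). With siRNA2, 11 were higher and 6 lower, or 20.7%, where 20.2% of all tested genes passed (8.02% higher and 12.2% lower). The lists together were thus near the background. Their median log2 difference was -0.01 with both siRNAs.

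On these lists 8 genes rose with both siRNAs, 2 fell with both, and 2 went opposite ways, where 9.06% of all tested genes passed with both in the same direction (3.85% higher and 5.21% lower). The siRNA comparisons share the control arrays. The largest rises were those of *Dcp1a* and *Eif4e2*. *Dcp1a*, an activator of mRNA decapping, read 91.4 to 105% in the controls, 198 to 257% with siRNA1, and 189 to 223% with siRNA2. Its log2 differences were 1.19 ± 0.11 (SE; adjusted p = 1.76e-05) and 1.00 ± 0.11 (adjusted p = 0.000149), whereas its dim second probe gave 0.21 and 0.31 and did not pass. *Eif4e2*, the cap-binding protein 4EHP that blocks translation of targeted mRNAs, read 94.0 to 111% in the controls, 190 to 238% with siRNA1, and 221 to 242% with siRNA2. Its differences were 1.11 ± 0.09 (adjusted p = 1.15e-05) and 1.19 ± 0.10 (adjusted p = 1.91e-05). Of its other 3 tested probes, 2 rose with both siRNAs and 1 did not (0.18 and -0.26). Both genes were known to be higher from earlier results of these arrays, so that they are no independent evidence of a direction.

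*Patl1*, a scaffold of decapping, fell to 40.8 to 47.5% with siRNA1 and 66.2 to 84.5% with siRNA2 from 92.6 to 108% in the controls. Its differences were -1.13 ± 0.10 (SE; adjusted p = 1.4e-05) and -0.41 ± 0.10 (adjusted p = 0.0187). The siRNA2 call was lost without control array 1 or siRNA2 array 2 or 3, with adjusted p up to 0.0772. *Ddx17*, an RNA helicase partner of the Microprocessor, fell with both as well, by 0.65 and 0.30 on the log2 scale (adjusted p = 6.61e-05 and 0.0182). Its siRNA2 call was lost without siRNA2 array 1 or 2 (adjusted p up to 0.077), and its second probe fell with siRNA1 (-0.33) and did not pass with siRNA2 (-0.22, adjusted p = 0.173).

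The deadenylation list, which holds the enzymes that Tnrc6 proteins recruit, moved in both directions, with 5 of its 19 tested genes higher and 4 lower with siRNA1, and 4 higher and 2 lower with siRNA2. With siRNA1 the lower genes were *Cnot8* (-0.40), *Pabpc4* (-0.40), *Btg1* (-0.30), and *Btg2* (-0.55), and with siRNA2 *Cnot2* (-0.48) and *Btg3* (-0.45), all but *Pabpc4* named after their values were seen. *Cnot7* (0.67, adjusted p = 0.0306) and *Cnot6l* (0.41, adjusted p = 0.0348) passed as higher with siRNA1 only, and were also named after their values were seen. Higher with both were 3 genes. *Cnot6*, a catalytic deadenylase of the CCR4-NOT complex, rose by 0.30 and 0.37 (adjusted p = 0.0428 and 0.0345). *Cnot4*, a ubiquitin ligase associated with that complex, rose by 0.36 and 0.44 (adjusted p = 0.0193 and 0.0142), and its 2 other probes did not pass. *Tob1*, an adaptor between the complex and the poly(A)-binding protein, rose by 0.52 and 0.43 (adjusted p = 0.00541 and 0.0291). These calls were close to the threshold, apart from that of *Tob1* with siRNA1. Leaving out 1 array ended that of *Cnot6* for 8 of 11 arrays with siRNA1 and 5 with siRNA2, that of *Cnot4* for 2 (control 1, siRNA1 1) and 1 (siRNA2 1), and that of *Tob1* for none with siRNA1 and 5 with siRNA2 (adjusted p up to 0.117).

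*Limd1*, a LIM protein that binds Argonaute and Tnrc6, rose by 0.25 with siRNA1 (adjusted p = 0.0428) and by 0.52 with siRNA2 (adjusted p = 0.00185), and its second probe by 0.33 and 0.45. The siRNA1 call was lost on leaving out any 1 of 9 arrays, and the siRNA2 call on none. *Zc3h7b*, a zinc finger protein, rose by 0.52 and 0.42 (adjusted p = 0.00344 and 0.0219), with the siRNA2 call lost without siRNA2 array 1 or 3 (adjusted p up to 0.0837). *Zswim8*, the receptor of the ubiquitin ligase that degrades Argonaute in target-directed miRNA decay, rose by 0.58 and 0.72 (adjusted p = 0.0302 and 0.0219), and its second probe gave 0.51 with siRNA1, which did not pass (adjusted p = 0.0622), and 0.71 with siRNA2 (adjusted p = 0.0284). The calls of the brighter probe were lost on leaving out 1 of 5 arrays with siRNA1 and 1 of 4 with siRNA2, with adjusted p up to 0.0896.

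The 2 genes that went opposite ways were *Pabpc4* and *Piwil2*. *Pabpc4*, a cytoplasmic poly(A)-binding protein, read 71.7 to 81.9% with siRNA1 and 120 to 133% with siRNA2 against 87.5 to 112% in the controls. Its differences were -0.40 ± 0.09 (SE; adjusted p = 0.00645) and 0.34 ± 0.10 (adjusted p = 0.0325), and the second of these was lost without any 1 of 5 arrays (adjusted p up to 0.107). Its second probe gave -0.18 and 0.32 and passed with neither. *Piwil2*, an Argonaute relative of the germline, read 58.6 to 87.1% with siRNA1 and 142 to 176% with siRNA2 against 90.7 to 112% in the controls. Its differences were -0.56 ± 0.13 (adjusted p = 0.0101) and 0.68 ± 0.15 (adjusted p = 0.00739), at signals of 20.6 to 57.8. Under normexp the siRNA1 difference of *Piwil2* turned to 0.64 and did not pass.

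*Ddx4*, the germ cell RNA helicase, was lower with siRNA1. Its dim probe was above background on all control and siRNA2 arrays and on 1 of 4 siRNA1 arrays. It read 81.1 to 121% in the controls and 75.7 to 115% with siRNA2, and below both on every siRNA1 array. In limma siRNA1 differed from control by -1.72 ± 0.22 (SE; adjusted p = 0.000197) and from siRNA2 by -1.66 ± 0.23 (adjusted p = 0.000438). These fits took the siRNA1 signals that were not above background as they were read. The probe was tested because all control and siRNA2 arrays, the groups where it was higher, had it above background. Its p-values for siRNA1 therefore rest in part on that filter and are given as a description. With each siRNA1 array taken as no less than the lowest signal that counted as measured, the folds were smaller. The control level was then 2.80-fold and the siRNA2 level 2.70-fold the siRNA1 level. These folds were not tested and are no strict bounds. With siRNA2 the log2 difference from control was -0.05 ± 0.23 (SE; adjusted p = 0.919). Under normexp the siRNA1 difference turned to 0.71 and did not pass. *Ddx4* is also 1 of the 3 germ cell markers. Of the other 2, *Sycp3* was above background on all arrays and did not pass, and *Dazl* was above it on 1 array.

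**Figure D5:**
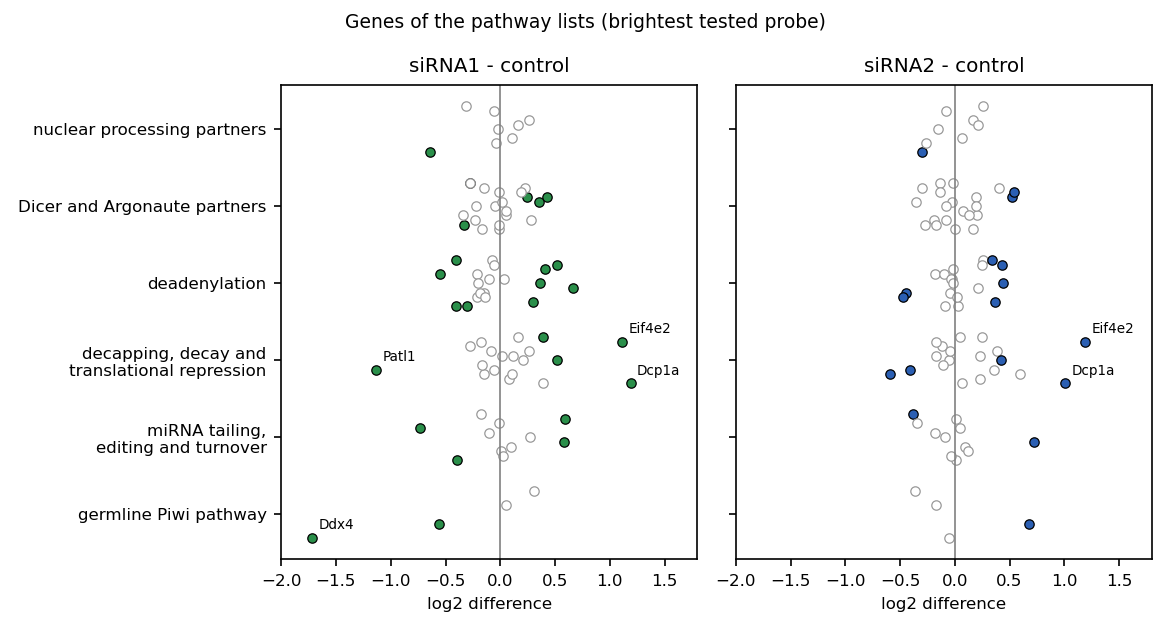
Log2 differences (horizontal axes) with siRNA1 (left) and siRNA2 (right) of the 82 tested genes of the 6 pathway lists (vertical axis), each by its brightest tested probe. Filled points passed at an adjusted p of 0.05 or less (26 genes with siRNA1, 17 with siRNA2), and the named genes passed with a fold change of at least 2. With siRNA1 the probe of *Ddx4* was above background on 1 of 4 arrays, so that its point is not an exact level. It was tested through the groups where it was higher. The vertical spread within a list carries no value.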

How the data were processed

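Total RNA of 11 MLTC samples (control, siRNA1, and siRNA2) was labeled with Cy3 and hybridized on single-color 44K whole-genome arrays. Per the file headers, the deposited intensities were made with Feature Extraction 9.5.1.1, which subtracted background within each array and did no normalization between arrays. The authors' GeneSpring table of group averages and comparisons was not used. Where a probe was not above background in a group, its level there is not exact.

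On the log2 scale, each array was centred on the 75th percentile of its non-control spots, outlier-marked spots were left out, and spots of a probe were averaged. A probe was tested (24250 of 41174) if all arrays of 1 or more groups had it well above background, with limma 3.58.1 in R 4.3.3 (lmFit, contrasts.fit, and eBayes, all 11 arrays in 3 groups, Benjamini-Hochberg adjustment over all tested probes). The same fit was checked on simulated data. Probes were named through RefSeq accessions (24375 probes). The array was annotated on an older genome build than the reference, so that no coordinates are given.

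All probes of the 10 genes are accounted for. List genes are named where their brightest tested probe passed with both siRNAs, or with a fold change of at least 2. Genes of the deadenylation list that passed with only 1 siRNA are named as well, after their values were seen. The members and lists were chosen with earlier results of these data known. The alternatives tried are given at the end, and 1 of them (normexp with extreme local backgrounds replaced) was chosen after seeing the data. Probe and siRNA sequences were not used here.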

Additional observations from a re-analysis of the deposited data

Results flagged for a closer look

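On the siRNA1 arrays 1 value stood far from the other 3 in 3 cases among the 40 groups of 4 arrays examined. Chance gives about 1 in 20, and the groups come from the same arrays, so that the cases are a description only. *Tnrc6a* probe 1 read 364% on siRNA1 array 1, above the other siRNA1 arrays. *Tnrc6a* probe 3 read 389% on siRNA1 array 3, above the other siRNA1 arrays. Its control level was not above background on any array, so that this percentage is not exact. *Ago1* read 45.9% on siRNA1 array 3, below the other siRNA1 arrays, at a signal near background.

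The siRNAs differed from each other on 6 probes by limma's test of that difference (siRNA1 minus siRNA2, log2). *Tnrc6b* was lower with siRNA1 than with siRNA2 on probe 1 (-0.72) and on probe 4 (-0.68). *Ago2* was lower on probe 1 (-0.41). *Dicer1* was higher with siRNA1 on probe 1 (0.54), as were *Dgcr8* (0.62) and probe 2 of *Xpo5* (0.69).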

How the results depend on the processing

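The main numbers of member probes that passed were 3 with siRNA1, 5 with siRNA2, and 6 between the siRNAs, and those of list genes were 26 with siRNA1 and 17 with siRNA2. Normexp background correction, under which the median log2 difference of all probes was 0.22 with siRNA1 and 0.17 with siRNA2 (-0.05 and -0.01 otherwise), gave 0, 0, and 0 member probes (limma), and 1 and 0 list genes. The same correction with extreme local backgrounds set to the array median (chosen after seeing the data) gave 3 member probes with siRNA2. Without a filter on dim probes there were 3 with siRNA2, and 16 list genes with siRNA1. Separate fits gave 3 with siRNA2. Averaging a gene over its probes, which counts the 8 tested member genes and not their 16 probes, gave 1 gene with siRNA1 and 2 with siRNA2. Median scaling gave 10 list genes with siRNA2. A fold change of at least 2 left 0, 0, and 0 member probes and 4 and 2 list genes, in limma and in the methods' t-test before and after adjustment (at an unadjusted p under 0.05 limma gave 4, 7, and 9, with 38.3, 30.5, and 35.2% of all tested probes). Leaving out 1 array gave 3 to 4, 3 to 6, and 4 to 8 member probes and 16 to 26 and 8 to 18 list genes. For normexp, the dim-probe filter, separate fits, averaging, median scaling, and left-out arrays, the share of all tested probes that passed is not given. Nothing is read from those counts about the members or lists. With slide as a block, *Tnrc6b* probe 4 came to pass with siRNA2, and *Ago2* probe 2 with siRNA2 and between the siRNAs. No other member call changed with that block, and 8670, 6172, and 7783 of all tested probes passed. With the replicate number as a block, member probes were 3, 8, and 10. The labels give same-numbered arrays no shared origin, and they were not taken as pairs (r of their deviations -0.18 to 0.53, median 0.30, 10 pairs). Of these pairs, 6 also lay on 1 slide (median r 0.47) and 4 did not (median r 0.15), and 9 of 11 arrays were most like an array of their own number, and 8397, 5847, and 7493 of all probes passed with that block, against 6553, 4472, and 5709. A set of 19 values of second and later member probes changed sign in 36 of 491 recomputations, none past the threshold, and came to pass in 25. Of 1702 recomputations of the other 66 single values, 251 kept the sign and lost the call, those requiring a fold of at least 2 among them. In 5 a value came to pass, and in 9 a value of *Tnrc6a*, which was not tested, moved beyond the spread of its arrays. The sign changed in 26, none of them past the threshold. Under normexp these were, against control with siRNA1, *Mamld1* (0.65), *Limd1* (-0.045), *Piwil2* (0.64), and *Ddx4* (0.71), with siRNA2 *Mamld1* (0.44), *Ddx4* (0.62), *Dicer1* (0.066), *Drosha* (-0.11), and *Xpo5* probe 2 (0.45), and between the siRNAs *Tnrc6b* probe 4 (0.058), *Tnrc6c* (0.11), *Ago3* (0.19), and *Xpo5* probe 1 (-0.0019). With extreme backgrounds replaced they were, with siRNA1, *Tnrc6a* probe 3 (-0.039), *Tnrc6c* (-0.059), *Ago3* (-0.10), and *Xpo5* probe 2 (-0.10), and between the siRNAs *Tnrc6a* probe 3 (-0.10). *Xpo5* probe 2 was -0.082 with siRNA1 as the mean over probes. Leaving out 1 array gave values on both sides of 0 for *Tnrc6b* probe 1 with siRNA1 (-0.18 to 0.0049), *Drosha* (-0.050 to 0.13), *Dgcr8* (-0.072 to 0.14), and *Ddx4* (-0.18 to 0.12) with siRNA2, and *Tnrc6c* between the siRNAs (-0.15 to 0.015). The cause was not tested. Signal over background limits *Ago1*, *Tnrc6a* probe 3, *Tnrc6b* probe 5, and *Ddx4*, which were not above it on all arrays.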
